A study of Mus musculus with 66 samples.

Results

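Rectal mucosa of mice at day 6 of dextran sulfate sodium (DSS), a detergent-like polymer in the drinking water that injures the colonic lining, was compared with rectal mucosa of uninjured mice. The members are the 7 rectal samples whose labels give day 0 (mice 1 to 4) or day 6 (mice 8 to 10), of 66 samples in the series. All were C57Bl/6 mice bought at 6 weeks of age. Day 0 mice were uninjured controls, and day 6 mice had 3% DSS for 6 days from day 0, so they were killed at the end of the exposure. Each sample is the dissected rectal section of 1 mouse, from which the muscle layer had been taken off, so it holds epithelium, lamina propria and blood together. Day 3 rectum (mice 5 to 7, killed during the exposure) and the mid-colon sections of mice 1 to 4 and 8 to 10 served as further comparisons. Sex and housing are not given in the sources used here.

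DSS damages the epithelial barrier, so that luminal bacteria reach the lamina propria, where resident macrophages and stromal cells call in neutrophils and monocytes through chemokines. The rectal epithelium is made of absorptive colonocytes, mucus-secreting goblet cells and hormone-secreting enteroendocrine cells, which are renewed from dividing crypt cells under Wnt signals. Colonocytes take up sodium, chloride and short-chain fatty acids and draw much of their energy from oxidising butyrate. In bulk tissue, fewer cells of a type and less RNA per cell cannot be told apart.

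Values are transcript abundances in TPM, a length-adjusted share of each library scaled to a fixed total, so levels of different genes can be set side by side. The table held no read counts, and the depth per sample is unknown. The 7 samples had between 11912 and 12328 genes at 1 TPM or more. Colonocyte and goblet markers fitted the labelled tissue. Car1 had 3352 to 4883 TPM at day 0 and 5205 to 6694 TPM at day 6, and Muc2 had 510 to 643 and 1197 to 1509 TPM. The skeletal muscle gene Tnnc2 was listed at 0 in 3 of the 4 day 0 samples and reached 1.96 TPM in the other. All 8 listed skeletal muscle genes together had 14.5 to 49.3 TPM at day 0 and 19.1 to 21.9 TPM at day 6. Smooth muscle remained present, with 38.2 to 51.0 TPM of Myh11 at day 0 and 17.5 to 40.9 TPM at day 6. Squamous genes of the adjoining anal canal were present at low levels, with 0.613 to 9.44 TPM of Krt5 at day 0 and 0.112 to 4.18 TPM at day 6.

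A gene is called here when limma's test on log2(TPM + 1) gives a Benjamini-Hochberg adjusted p under 0.05 across all 12615 genes with at least 1 TPM in 3 of the 7 samples. Log2 differences are on that scale, which understates the change of genes near 0 TPM, and are followed by their standard error (SE). Of the genes tested, 11.5% were called higher and 37.2% lower at day 6 (48.7% together). The counts depended on the scale. Over the tested genes the log2 differences had a median of -0.27, and scaling by trimmed means of M values (TMM) brought it to -0.04. Whether that median reflects a fall of many genes or the sharing of a fixed total was not tested. With TMM factors, 18.6% were called higher and 17.8% lower (36.4% together), so higher genes were 51.1% of the calls instead of 23.7%. All 1455 higher calls and 2246 of the lower calls held under both scales, and no gene was called in opposite directions. A few abundant epithelial transcripts took more of the total, and the mitochondrial genome took less. Lypd8 took 2.53% to 2.84% at day 0 and 4.39% to 5.1% at day 6. The near-identical genes Sprr2a1, Sprr2a2 and Sprr2a3, chosen after their values were seen, took 3.73% to 4.38% and 5.94% to 8.71%. The mitochondrial genome took 16.3% to 20% at day 0 and 9.67% to 13.4% at day 6. Counts with TMM factors are therefore given beside the counts for each gene group in rectum. A gene under 1 TPM in every day 0 sample could enter the test through day 6 alone, where it is then high. This was so for 9 of the tested neutrophil genes, 7 cytokines, 3 neutrophil chemokines and 3 defence genes, for 2 each of the other chemokine, macrophage and protease groups, and for 1 each of the interferon-stimulated, goblet, enteroendocrine, interleukin-6 family, transcription factor and T cell groups.

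Without any test, all day 6 values lay above all day 0 values for 12.4% of the genes and below them for 41.3%. The 3 injured mice were not alike. Of the 1455 genes called higher, 70.1% had their highest day 6 value in mouse 10, against 28.4% of all genes tested. Of the 4690 genes called lower, 70.4% had their lowest value there, against 50% of all genes tested. Mouse 10 also had the lowest share of mitochondrial transcripts, 9.67%. For some of the genes below, the log2 difference without mouse 10 is given beside the main one. Where it is not given, the difference can also be smaller without mouse 10.

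**Figure D1:**
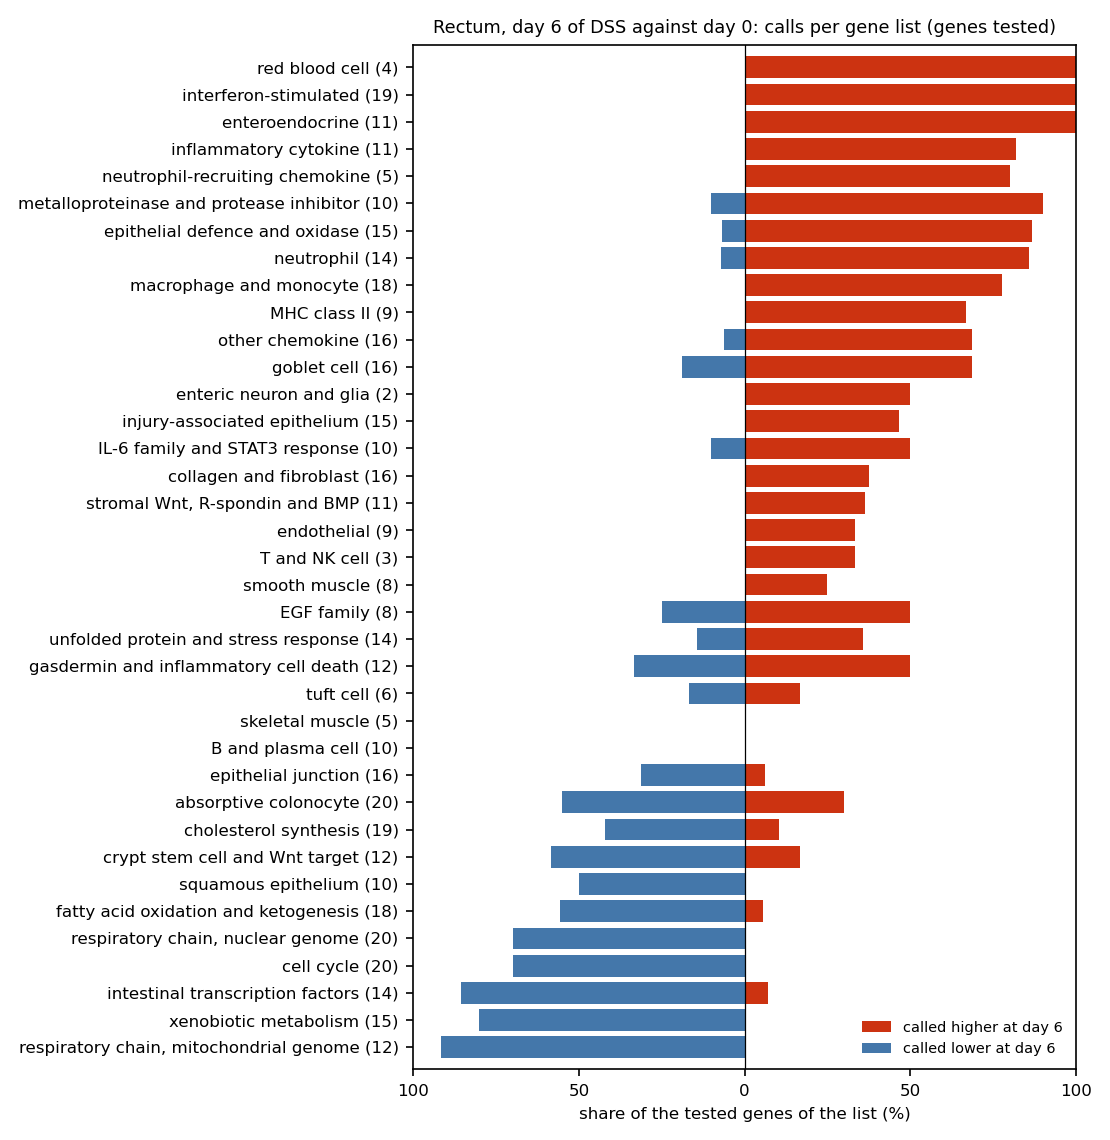
Share of the tested genes of each list called higher (red, to the right) or lower (blue, to the left) at day 6 in rectum; the number in brackets is the number of genes tested. Interferon-stimulated, enteroendocrine and red blood cell genes were all called higher, while mitochondrially encoded, xenobiotic and transcription factor genes were mostly called lower on the TPM scale.

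Of the 5 neutrophil chemokine genes, 4 were higher, and 3 of these had been under 1 TPM in every uninjured mouse. Cxcl1, Cxcl2 and Cxcl3 encode ligands of CXCR2, the receptor through which neutrophils are drawn into tissue. Cxcl1 had 0.15, 0.565, 0.212 and 0.805 TPM in the day 0 mice and 21.9, 8.22 and 95.6 TPM in the day 6 mice. Cxcl2 was listed at 0 in 3 of the 4 day 0 mice and had 0.0697 TPM in the other, against 12.5, 35.1 and 75.8 TPM. Cxcl3 stayed at or under 0.138 TPM at day 0 and had 2.73, 6.38 and 16.6 TPM at day 6. No day 6 sample overlapped a day 0 sample for any of these genes, and mouse 10 was highest for each. The log2 differences were 4.28 ± 0.65 (SE) for Cxcl1, 5.04 ± 0.48 for Cxcl2 and 2.87 ± 0.43 for Cxcl3 (limma adjusted p 0.00171, 0.000253 and 0.00161), and 3.37, 4.44 and 2.29 without mouse 10. Cxcl5, another CXCR2 ligand, rose from 4.55 to 6.23 TPM to 13.2 to 50.7 TPM (log2 difference 2.04 ± 0.36, limma adjusted p 0.00325). The platelet chemokine Ppbp was not called, with 2.5 to 12.1 TPM at day 0 and 0.596 to 9.26 TPM at day 6. It was called lower without mouse 10 (log2 difference -2.28, limma adjusted p 0.011). The 4 higher calls were made on both scales.

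Of the 4 neutrophil chemokine genes with an entry in the RefSeq promoter table, 3 carry the 10 bases GGGAATTTCC, a match to the kappa B motif that NF-kappaB binds, just upstream of their start. NF-kappaB is the factor through which microbial products and interleukin-1 act on many inflammatory genes. The 150 bases before each start are shown because they hold this shared element; all lie on the plus strand of GRCm38.p6, the match in capitals:
Cxcl1 (chr5:90891095-90891244): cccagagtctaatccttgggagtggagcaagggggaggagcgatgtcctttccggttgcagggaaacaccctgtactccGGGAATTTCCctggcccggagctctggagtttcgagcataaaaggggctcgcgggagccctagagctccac
Cxcl2 (chr5:90903749-90903898): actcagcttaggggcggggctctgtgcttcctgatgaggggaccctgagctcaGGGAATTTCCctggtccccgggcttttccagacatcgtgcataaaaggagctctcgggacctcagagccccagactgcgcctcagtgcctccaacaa
Cxcl3 (chr5:90785951-90786100): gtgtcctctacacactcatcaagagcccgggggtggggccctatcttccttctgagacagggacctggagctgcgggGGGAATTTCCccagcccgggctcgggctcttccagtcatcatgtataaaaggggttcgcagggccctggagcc
The match begins 71, 97 and 73 bases upstream of the start. The motif, which allows any base at the fifth position, was searched on both strands from 250 bases before to 50 bases after each RefSeq start. It occurred in 126 of all 27025 promoters (0.466%) and in 0.591% of those of tested genes. Among genes called higher it occurred in 16 of 1082 promoters (1.48%), among genes called lower in 15 of 3718 (0.403%), and among those called lower on both scales in 10 of 1766 (0.566%). It occurred in 1 of 16 promoters of the inflammatory cytokines (6.25%) and in none of the other chemokines (11 searched), the epithelial defence genes (14 searched) or the absorptive colonocyte genes (15 searched). The genes Cxcl1, Cxcl2 and Cxcl3 are neighbouring copies of 1 family, so their matches are not independent, and the match is a description of the sequence.

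Transcripts of neutrophils themselves rose with mouse 10 in the lead. S100a8 (chr3:90668978-90670035), 1 subunit of the calprotectin pair that neutrophils carry in bulk, had 0, 1.27, 0.715 and 0 TPM at day 0 and 141, 305 and 1543 TPM at day 6. Its partner S100a9 had 1.84, 1.74, 4.22 and 0.247 TPM at day 0 and 194, 357 and 1816 TPM at day 6. Every injured mouse was far above every uninjured one, and mouse 10 far above the other injured mice. The log2 differences were 8.17 ± 0.70 and 7.56 ± 0.72 (limma adjusted p 0.000175 and 0.000265), and 7.21 and 6.63 without mouse 10. Csf3r, the receptor for the granulocyte growth factor G-CSF, had at most 0.258 TPM at day 0 and 7.84, 9.74 and 48.3 TPM at day 6. Cxcr2 had at most 0.296 TPM and then 2.44, 3.28 and 17.9 TPM (log2 difference 2.43, and 1.66 without mouse 10). Of 18 listed neutrophil genes 14 could be tested, and 9 of these were under 1 TPM in every day 0 sample. Higher calls went to 12 (13 with TMM factors), each with its highest value in mouse 10, including Retnlg, Il1r2, Clec4d, Clec4e, Trem1 and Hdc. The secondary granule gene Ltf was called only with TMM factors or without mouse 3 (1.06 to 4.56 TPM against 4.58 to 6.39 TPM), and Camp and Ngp were too low to test.

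A pair of genes on this list did not follow the others at day 0. Ly6g, the usual surface marker of mouse neutrophils, already had 603, 615, 602 and 736 TPM in uninjured rectum, where S100a8, Csf3r and Cxcr2 were at or near 0, and had 1692, 1846 and 2720 TPM at day 6 (log2 difference 1.68 ± 0.16, limma adjusted p 0.000275). It belongs to a family of similar neighbouring genes, and its value is uncertain where reads could be shared. Cd177, another neutrophil surface gene, had 13.0 to 22.7 TPM at day 0 and fell to 7.18 to 9.69 TPM (log2 difference -1.04 ± 0.19, limma adjusted p 0.0035).

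Inflammatory cytokines rose, Il1b most of all. Il1b (chr2:129364570-129371139), made chiefly by activated myeloid cells, had 0.185, 0.0777, 0.327 and 0.498 TPM at day 0 and 57.0, 111 and 377 TPM at day 6 (log2 difference 6.74 ± 0.52, limma adjusted p 9.92e-05). Il1a and Tnf followed at lower levels. Tnf had at most 0.219 TPM in uninjured rectum and 12.2, 8.47 and 17.3 TPM after DSS, a difference of 3.50 ± 0.21 (limma adjusted p 3.21e-05). Il6 and Csf3, which encodes G-CSF, were listed at 0 in all 4 day 0 mice. Il6 then had 5.54, 1.08 and 19.7 TPM and Csf3 had 1.22, 1.1 and 7.45 TPM (log2 difference 1.77, and 1.11 without mouse 10). Il11, a stromal cytokine of the interleukin-6 family, was high in 1 mouse only, with 3.45, 1.02 and 53.4 TPM (log2 difference 2.88, and 1.49 without mouse 10). With each of the 7 mice omitted in turn, it was called 3 times. The interleukin-18 gene Il18, expressed by the epithelium, rose from 150 to 182 TPM to 238 to 277 TPM (0.59 ± 0.10, limma adjusted p 0.00242). Of 21 listed cytokines 11 could be tested, 7 of them through day 6 alone, and 9 were called higher on both scales. Il17a, Il22, Il23a, Il12b, Ifng and Il13 stayed under 1 TPM in every sample of both groups.

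The interleukin-6 family signals through gp130 (Il6st) to STAT3, and Socs3 is the feedback inhibitor that STAT3 induces. Socs3 had 1.08, 1.29, 1.41 and 1.74 TPM at day 0 and 29.1, 39.6 and 154 TPM at day 6 (4.60 ± 0.48, limma adjusted p 0.000363). Receptor genes moved less: Osmr rose by 1.42 ± 0.21 and Il6st by 0.47 ± 0.11 on the log2 scale. Il4ra, the receptor gene for interleukin-4 and not of the interleukin-6 family, rose by 1.87 ± 0.24. The receptor for interleukin-22, Il22ra1, fell from 34.6 to 42.3 TPM to 21.6 to 25.5 TPM (-0.71 ± 0.11, limma adjusted p 0.00164). Of the 10 genes, 5 were called higher and 1 lower (6 and 1 with TMM factors).

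**Figure D2:**
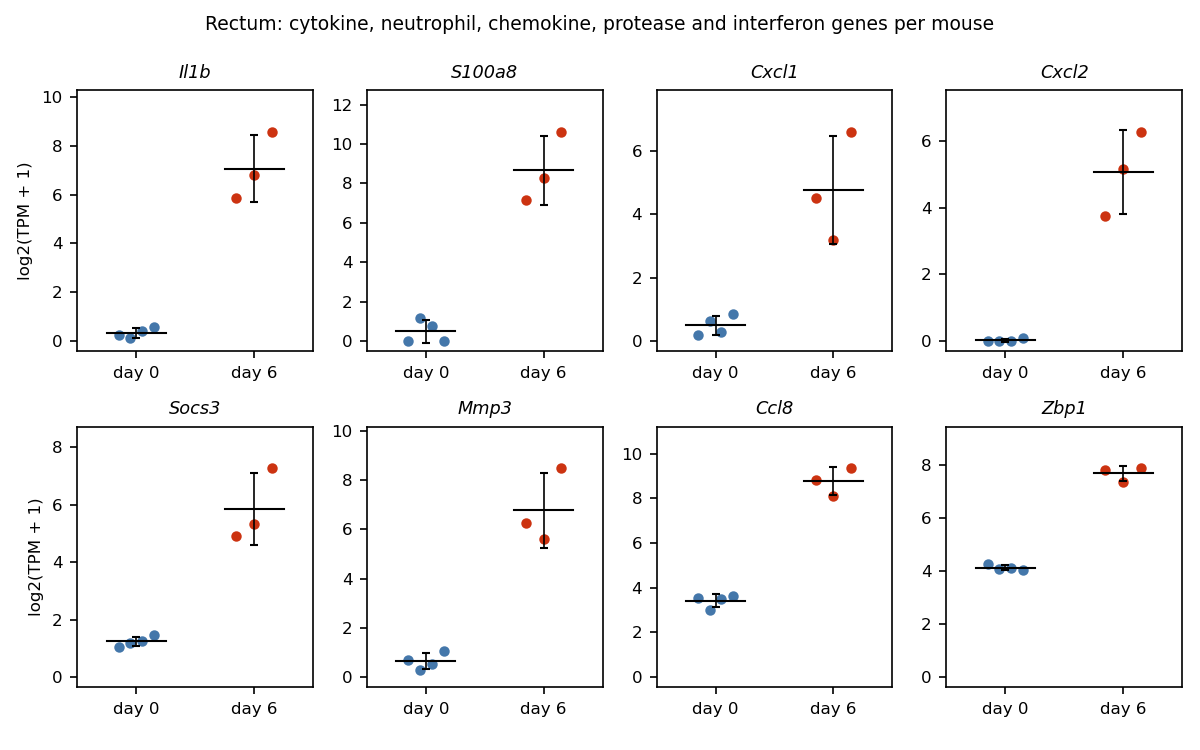
Log2(TPM + 1) of 8 genes in rectum of 4 uninjured mice (blue) and 3 mice at day 6 of DSS (red); points are mice, in order of mouse number from left to right, bars the mean ± SD. The day 6 points lie above every day 0 point in all panels, and mouse 10 (rightmost red point) is highest in each.

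Monocyte and macrophage transcripts were higher. The monocyte-drawing chemokine Ccl8 had 10.6, 6.97, 10.1 and 11.4 TPM at day 0 and 454, 277 and 648 TPM at day 6 (5.35 ± 0.27, limma adjusted p 1.48e-05), the largest rise of any listed chemokine gene. Ccl2, Ccl3, Ccl4, Ccl5, Ccl7 and Ccl9 rose as well, by between 2.21 and 3.39 on the log2 scale (3.09 for Ccl2, and 2.40 without mouse 10). Among 16 testable chemokines other than the neutrophil group, 11 were called higher and 1 lower (12 and 0 with TMM factors). The exception was Ccl28, an epithelial chemokine that attracts antibody-secreting cells, at 46.8 to 61.4 TPM and then 25.2 to 42.7 TPM (log2 difference -0.61, and -0.40 without mouse 10). Lyz2, the lysozyme of myeloid cells, went from 169, 116, 125 and 185 TPM to 689, 563 and 1242 TPM (2.42 ± 0.27, limma adjusted p 0.000484). The complement genes C1qa, C1qb and C1qc rose by 2.17, 2.14 and 1.95 on the log2 scale and the phagosome gene Cd68 by 2.56. The surface genes Adgre1 (F4/80), Mrc1 and Ccr2 rose by 1.10, 1.27 and 1.53. Of 18 macrophage and monocyte genes, 14 were called higher and 0 lower (15 and 0 with TMM factors), and mouse 10 was highest for 13 of the 14. Cx3cr1, a gene of resident macrophages, was called only with TMM factors (1.24 to 1.54 TPM against 1.76 to 2.22 TPM).

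Antigen presentation and interferon genes were higher as well. The MHC class II genes H2-Aa, H2-Ab1, H2-Eb1 and Cd74 rose by 1.52, 1.53, 1.29 and 1.35 on the log2 scale, and 6 of 9 testable genes were called higher on both scales. All 19 interferon-stimulated genes were called higher on the TPM scale, with TMM factors and without any single mouse, against 11.5% of all genes tested. Zbp1, a sensor of nucleic acids, had 18.1, 16.2, 16.2 and 15.4 TPM at day 0 and 226, 164 and 237 TPM at day 6 (3.57 ± 0.14, limma adjusted p 6.39e-06). Isg15, a ubiquitin-like modifier, had 5.79, 1.44, 3.63 and 4.72 TPM and then 37.7, 41.2 and 49.6 TPM (3.25 ± 0.31, limma adjusted p 0.000275). Gbp2, a guanylate-binding protein, had 9.11 to 24.3 TPM and then 92.6, 128 and 125 TPM. Mouse 9 was highest for 10 of these 19 genes and mouse 10 for 6. Ifng itself was at or under 0.136 TPM in every sample.

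Lymphocyte transcripts gave little. Of 12 genes of T and natural killer cells only 3 could be tested, and Cd4 alone was called, on both scales (0.591 to 0.914 TPM against 1.76 to 6.56 TPM). None of 10 testable B and plasma cell genes was called on either scale (2 were called lower without mouse 2). Their summed level ranged from 97.0 to 414 TPM at day 0 and from 96.0 to 138 TPM at day 6. Igha, the heavy chain of secretory antibody, had 63.9 to 265 TPM and then 45.5 to 92.2 TPM (-1.06 ± 0.43, limma adjusted p 0.0678, 0.0181 without mouse 2 and 0.0394 without the mitochondrial genome).

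Genes of matrix-degrading enzymes were higher. Mmp3 (stromelysin-1) had 0.621, 0.232, 0.462 and 1.06 TPM at day 0 and 74.5, 47.3 and 356 TPM at day 6 (6.12 ± 0.58, limma adjusted p 0.000258). Mmp10 had at most 0.738 TPM and then 22.3, 12.6 and 299 TPM, and Mmp13 (collagenase-3) at most 0.975 TPM and then 22.6, 11.3 and 228 TPM. For both, mouse 10 was more than 10 times above mouse 8 and mouse 9, and the log2 differences of 5.02 and 4.47 came to 3.66 and 3.22 without it. The inhibitor Timp1 rose from 2.16 to 3.43 TPM to 44.4, 28.5 and 120 TPM (3.96 ± 0.41, limma adjusted p 0.000347). Timp3, another inhibitor, fell from 41.1 to 54.9 TPM to 27.7 to 31.5 TPM (-0.69 ± 0.12, limma adjusted p 0.00327). The plasminogen activator Plau rose by 2.38 (1.39 without mouse 10). In total 9 of 10 tested genes of this group were called higher and 1 lower on both scales, and mouse 10 was highest for all 9.

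Among 16 collagen and fibroblast genes 6 were called higher and 0 lower (7 and 0 with TMM factors). Grem1, a secreted blocker of BMP signals made by fibroblasts under the crypts, stood apart, with 4.91, 4.8, 5.93 and 7 TPM at day 0 and 56.2, 34.1 and 52.2 TPM at day 6 (2.84 ± 0.19, limma adjusted p 6e-05). The Wnt-enhancing R-spondin gene Rspo3 had 1.92 to 1.98 TPM and then 7.75, 5.44 and 6.63 TPM (1.36 ± 0.14, limma adjusted p 0.000322). Sfrp1, a secreted Wnt antagonist, rose by 1.90 ± 0.25 (limma adjusted p 0.000997). Leucocyte adhesion genes of activated endothelium rose, Selp by 1.37, Icam1 by 1.77 and Vcam1 by 1.54 on the log2 scale, and they were the only 3 called of 9 testable endothelial genes (4 with TMM factors).

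Antimicrobial and oxidant-producing genes that epithelium is known to express were mostly higher. Bulk tissue does not show which cells these transcripts came from. Mouse 10 was highest for 8 of the 13 called higher. Saa3 (chr7:46711998-46715700), an acute-phase protein, had 0.211, 0.354, 0.298 and 0.908 TPM at day 0 and 282, 227 and 1922 TPM at day 6 (8.46 ± 0.64, limma adjusted p 9.39e-05, and 7.48 without mouse 10), the largest rise of all genes that met the naming rule. Slpi, an inhibitor of neutrophil elastase, had 71.4, 85.0, 57.9 and 44.5 TPM at day 0 and 1629, 1514 and 2382 TPM at day 6 (4.82 ± 0.23, limma adjusted p 1.19e-05). Saa1, already abundant, had 1496 to 2856 TPM and then 7865 to 14621 TPM. It and Saa2 are near-identical, so the split between them is uncertain. The peroxide-making oxidase Duox2 and its maturation factor Duoxa2 rose by 2.65 ± 0.21 and 3.51 ± 0.34, and the nitric oxide synthase Nos2 by 2.75 ± 0.36 (limma adjusted p 0.000126, 0.000277 and 0.000968). The superoxide-making oxidase Nox1 went the other way, from 4.51, 5.1, 5.36 and 6.5 TPM to 0.238, 0.0991 and 0.0664 TPM (-2.48 ± 0.15, limma adjusted p 3.1e-05), while its organiser Noxo1 rose by 0.99 ± 0.10. The lectins Reg3b and Reg3g, mainly known from small intestine, stayed at or under 1.62 TPM, although Reg3g was called higher. Of 15 tested defence genes, 3 of them tested through day 6 alone, 13 were called higher and 1 lower (14 and 1 with TMM factors).

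Most genes of the secretory lineages were higher. The goblet mucin Muc2 had 596, 510, 643 and 630 TPM at day 0 and 1342, 1509 and 1197 TPM at day 6 (1.18 ± 0.11, limma adjusted p 0.000275). Tff3, Clca1, Zg16 and Fcgbp, all secreted into mucus, rose by 1.33, 0.98, 0.96 and 0.74 on the log2 scale. Retnlb, a goblet cell protein induced by inflammation, went from at most 0.495 TPM to 13, 16.5 and 26.6 TPM (3.85 ± 0.23, limma adjusted p 3.1e-05), and Spink4 from 745 to 1058 TPM to 2548 to 3775 TPM (1.85 ± 0.16, limma adjusted p 0.000161). In all 11 of 16 goblet genes were called higher and 3 lower on both scales. The 3 lower were Best2, an ion channel of colonic goblet cells (-2.23 ± 0.31), Creb3l1 (-1.30 ± 0.21) and Atoh1, the transcription factor that specifies secretory cells (-0.67 ± 0.16; limma adjusted p 0.00115, 0.00192 and 0.0104). The groups did not overlap for Atoh1, with 9.68 to 14.0 TPM and then 5.54 to 8.19 TPM.

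Every testable enteroendocrine gene rose (11 of 11 on both scales, of 13 listed). Tac1, which encodes substance P, had 10.9, 14.8, 12.5 and 14.0 TPM at day 0 and 255, 176 and 147 TPM at day 6 (3.76 ± 0.19, limma adjusted p 1.45e-05). Gcg, the precursor of the hormone GLP-1 in gut L cells, had 12.7, 13.9, 11.4 and 12.5 TPM and then 169.5, 133 and 216 TPM (3.65 ± 0.16, limma adjusted p 7.64e-06). Pyy and Insl5, further L cell hormones, rose by 1.90 and 2.72 on the log2 scale, Sst by 1.64, and the general granule genes Chga and Chgb by 1.44 and 2.04. Cck had at most 0.682 TPM and then 9.55, 5.92 and 11.3 TPM. Mouse 8 was highest for 7 of these 11 genes and mouse 10 for 4. The summed level of the list was 256 to 316 TPM at day 0 and 1166 to 1773 TPM at day 6. Summed over the same days, tuft cell genes had 30.1 to 38.3 TPM and then 30.6 to 37.7 TPM. Of 6 testable tuft genes, 1 was called higher and 1, Hpgds, lower, on both scales.

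**Figure D3:**
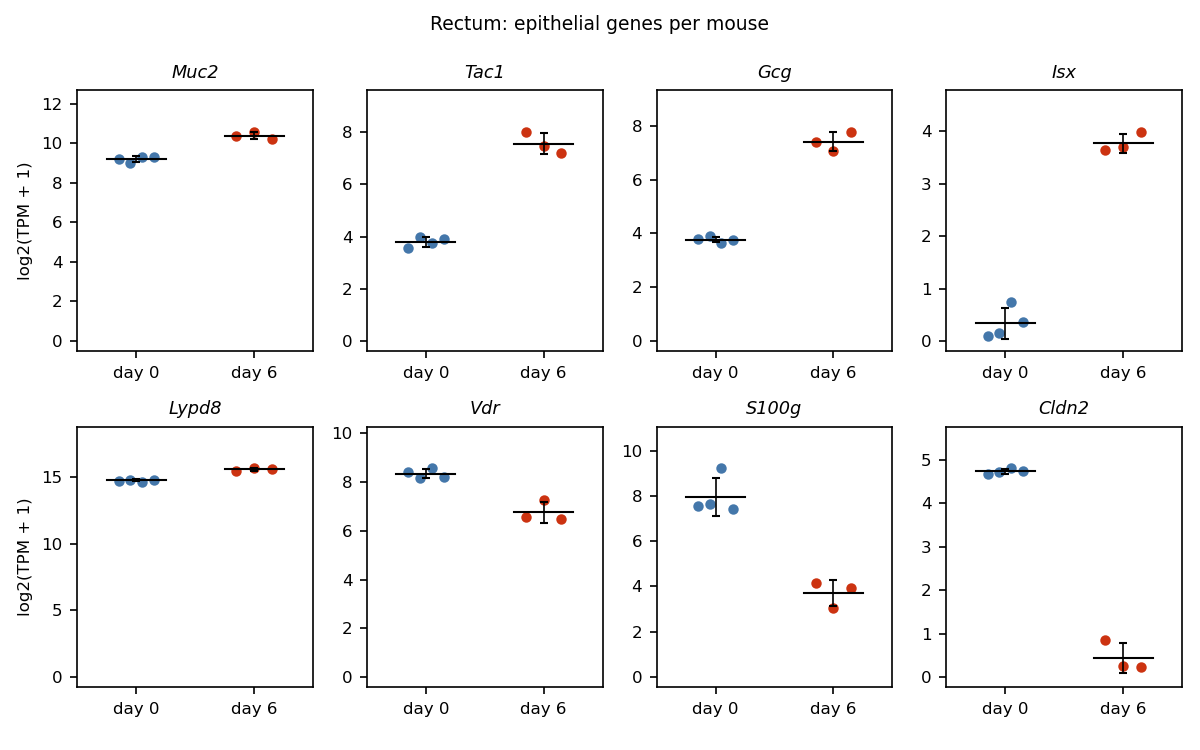
Log2(TPM + 1) of 8 epithelial genes in rectum of 4 uninjured mice (blue) and 3 mice at day 6 of DSS (red); points are mice, bars the mean ± SD. Muc2, Tac1, Gcg, Isx and Lypd8 lie above, and Vdr, S100g and Cldn2 below, every point of the other group.

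Absorptive colonocyte genes divided. Lypd8, a surface protein that keeps flagellated bacteria off the epithelium, had 26788, 28401, 25310 and 28110 TPM at day 0 and 43893, 51030 and 49923 TPM at day 6 (0.83 ± 0.09, limma adjusted p 0.000511). The carbonic anhydrases Car1 and Car4 rose by 0.54 ± 0.15 and 0.65 ± 0.11, the proton pump Atp12a by 0.70 ± 0.13, and the surface keratin Krt20 by 0.53 ± 0.12 (limma adjusted p 0.0188, 0.00273, 0.0042 and 0.0082). With all rectal samples in the fit the adjusted p was 0.17 for Car1, 0.1 for Car4 and 0.0502 for Atp12a, and Car1 also lost its call with no filter (0.0595) and without mouse 1, 2 or 8 (0.0512, 0.0504 and 0.0627). Slc26a3, the chloride-bicarbonate exchanger, went from 1011, 1143, 1245 and 1291 TPM to 561, 882 and 609.6 TPM (-0.80 ± 0.16, limma adjusted p 0.00519, and 0.0943 with all rectal samples in the fit). The butyrate carriers Slc5a8 and Slc16a1 fell by 1.38 and 1.48 on the log2 scale, and the sodium channel subunit Scnn1a by 1.10. S100g (chrX:162961992-162964599), the calcium-binding protein that vitamin D induces, went from 188, 197, 599 and 170 TPM to 16.6, 7.25 and 14.5 TPM (-4.25 ± 0.44, limma adjusted p 0.000371). The vitamin D receptor gene Vdr fell from 342, 287, 379 and 297 TPM to 93.4, 153 and 88.3 TPM (-1.57 ± 0.19, limma adjusted p 0.000701). Of 20 absorptive genes 6 were called higher and 11 lower, against 11.5% and 37.2% of all genes tested. With TMM factors 7 and 6 were, against 18.6% and 17.8%. Slc26a3, Scnn1a, Slc5a8 and S100g were called lower on both scales.

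Transcription factors that keep intestinal identity were mostly lower. Klf5 fell by 1.45 ± 0.21, Klf4 by 0.79 ± 0.13 and Hnf4a by 0.60 ± 0.12 (limma adjusted p 0.00133, 0.00204 and 0.00579). Nr3c2, the aldosterone receptor, fell by 1.13 ± 0.16 (limma adjusted p 0.00142). The 1 higher call was Isx, a homeobox factor of the small intestine, which had 0.0673, 0.113, 0.666 and 0.282 TPM at day 0 and 11.5, 12.1 and 14.8 TPM at day 6 (3.44 ± 0.19, limma adjusted p 2e-05). The list gave 1 higher and 12 lower calls of 14, against 11.5% and 37.2% of all genes tested. With TMM factors it gave 2 and 9, against 18.6% and 17.8%. Cdx1 and Cdx2 were called lower on the TPM scale only (-0.61 and -0.77, limma adjusted p 0.021 and 0.0325). Cdx1 was not called without mouse 1, 3, 8 or 10, nor Cdx2 without mouse 1, 3, 4, 9 or 10 or with all rectal samples in the fit (limma adjusted p between 0.0528 and 0.103).

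Claudins changed in composition. Cldn2 (chrX:139800828-139811386), a claudin that forms channels for cations and water and is expressed in crypts, had 24.6, 25.1, 26.9 and 25.5 TPM at day 0 and 0.795, 0.185 and 0.177 TPM at day 6 (-4.29 ± 0.17, limma adjusted p 6.39e-06). Cldn15, also channel-forming, went from 6.96 to 8.7 TPM to 0.819 to 1.06 TPM (-2.15 ± 0.13, limma adjusted p 3.1e-05). The sealing claudin Cldn8 rose from 57.4 to 72.0 TPM to 158, 121 and 98.0 TPM (1.00 ± 0.16, limma adjusted p 0.00219). Over all 16 junction genes 1 was called higher and 5 lower, against 11.5% and 37.2% of all genes tested, and 5 and 2 with TMM factors, against 18.6% and 17.8%. Only Cldn2, Cldn15 and Cldn8 kept their call on both scales. Ocln and Tjp1 were called lower on the TPM scale only.

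Dividing-cell genes were lower, with mouse 8 standing between the groups. Mki67 had 16.3, 14.9, 16.1 and 14.1 TPM at day 0 and 8.02, 1.32 and 1.84 TPM at day 6 (-2.07 ± 0.40, limma adjusted p 0.00445). Ccnb2, a mitotic cyclin, had 14.2 to 19.9 TPM and then 6.05, 1.09 and 1.95 TPM (-2.39 ± 0.36, limma adjusted p 0.00161). For Cdk1 mouse 8, at 20.8 TPM, lay within the day 0 range of 20.1 to 29.8 TPM. Cdk1 was called lower, but not with TMM factors (limma adjusted p 0.0618). Of 20 cell cycle genes 14 were called lower, against 37.2% of all genes tested, and between 10 and 17 when 1 mouse was left out. With TMM factors 11 were called lower and 1 higher, against 17.8% and 18.6%. The replication genes Mcm2, Mcm5 and Mcm6 were called lower only without mouse 8 (log2 differences -0.76, -0.90 and -0.92). In mouse 8 they had 4.14, 4.64 and 9.31 TPM against at most 4.19, 4.5 and 8.05 TPM in uninjured mice. Targets of Wnt signalling fell as well: Axin2 went from 1.78 to 2.42 TPM to at most 0.272 TPM (-1.41 ± 0.14, limma adjusted p 0.000334), and the log2 differences were -1.48 ± 0.14 for Smoc2 and -1.36 ± 0.16 for Lrig1 (limma adjusted p 0.000261 and 0.000604). The stem cell genes Lgr5 and Ascl2 were under 1 TPM in every sample and could not be tested. Of 12 testable genes 7 were called lower and 2 higher, against 37.2% and 11.5% of all genes tested. With TMM factors 6 and 2 were, against 17.8% and 18.6%. The higher ones were Prom1 and Cd44, which leucocytes also express. The call of Cd44 was marginal (0.90, limma adjusted p 0.0485, and 0.42 without mouse 10). It was lost with all rectal samples in the fit, with no filter, without the mitochondrial genome and without mouse 1, 2, 3 or 4 (limma adjusted p 0.0537 to 0.139).

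Some genes known from regenerating epithelium were higher. Ly6a, the Sca-1 surface protein, had 631, 550.1, 581 and 738 TPM at day 0 and 3984, 4081 and 4972 TPM at day 6 (2.80 ± 0.13, limma adjusted p 7.64e-06). It is 1 of a family of similar genes. Plaur, the urokinase receptor, which myeloid cells also express, rose by 2.78 ± 0.29, and Anxa1 by 0.90 ± 0.12 (limma adjusted p 0.000381 and 0.00101). Of 15 testable genes 7 were called higher and 0 lower on both scales. The YAP target Ccn2 (14.5 to 29.9 TPM against 7.93 to 18.4 TPM) was not called. The growth factors Areg, Ereg and Hbegf, ligands of the EGF receptor, rose by 2.11, 2.86 and 1.54 (2.18 for Ereg without mouse 10). Areg had 18.5, 11.5, 18.5 and 12.5 TPM and then 51.1, 72.7 and 84.0 TPM. Their co-receptors Erbb2 and Erbb3 fell by 1.01 and 0.95 on the log2 scale, on both scales of the test.

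Metabolic genes were mostly lower. Among xenobiotic genes, which handle luminal and dietary compounds, 12 of 15 were called lower, against 37.2% of all genes tested, and 0 higher. With TMM factors 9 were called lower, against 17.8%, and 1 higher. Gstm1, a glutathione transferase, had 173, 182, 220.1 and 196 TPM at day 0 and 39.0, 35.2 and 34.7 TPM at day 6 (-2.37 ± 0.11, limma adjusted p 7.64e-06), and its relative Gstm3 fell by 3.42 ± 0.25. The sulfotransferase Sult1a1 fell by 2.66 ± 0.29, the conjugating enzyme Ugt1a1 by 1.78 ± 0.21 and the efflux pump Abcb1a by 1.25 ± 0.13 (limma adjusted p 0.000447, 0.000575 and 0.000406). For fatty acid oxidation and ketogenesis, 10 of 18 genes were called lower and 1 higher, against 37.2% and 11.5% of all genes tested. With TMM factors 7 and 1 were, against 17.8% and 18.6%. The median log2 difference of these 18 genes was -0.44, against -0.27 for all genes tested. Acads, the short-chain acyl-CoA dehydrogenase that opens butyrate oxidation, had 39.4 to 50.8 TPM and then 14.5, 17.5 and 19.2 TPM (-1.36 ± 0.13, limma adjusted p 0.000261). Bdh1 fell by 1.24 and Acadm by 0.83, while Acadl rose by 0.71 ± 0.10.

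Respiratory chain genes of the nuclear genome gave 14 lower and 0 higher calls of 20, against 37.2% and 11.5% of all genes tested. With TMM factors they gave 9 and 0, against 17.8% and 18.6%. Their median log2 difference was -0.47, against -0.27 for all genes tested. Sdha led the lower calls (171 to 203 TPM against 79.0 to 104 TPM, -0.97 ± 0.12, limma adjusted p 0.000641). The 12 testable genes of the mitochondrial genome gave 11 lower calls, against 37.2% of all genes tested. Of these, 2 were kept with TMM factors, near the 17.8% called lower over all genes on that scale. On the TPM scale 6 calls were made without mouse 2, 4 or 10. Their summed level was 163267 to 200060 TPM at day 0 and 96676 to 134114 TPM at day 6. Cholesterol synthesis gave 2 higher and 8 lower calls of 19, against 11.5% and 37.2% of all genes tested, and 3 and 3 with TMM factors, against 18.6% and 17.8%. Its lower calls came to 5 without mouse 1, 2 or 3. Dhcr7, which acts late in that pathway, fell on both scales (-1.14 ± 0.17, limma adjusted p 0.00162), and Msmo1 and Fdft1 rose.

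Of 12 genes of inflammatory cell death 6 were called higher and 4 lower, against 11.5% and 37.2% of all genes tested (6 and 2 with TMM factors, against 18.6% and 17.8%). Gsdmd, the pore-forming gasdermin of pyroptosis, had 129 to 147 TPM at day 0 and 275, 294 and 317 TPM at day 6 (1.13 ± 0.09, limma adjusted p 0.000117). Casp4 and Casp8 rose by 1.51 and 1.03, and the necroptosis genes Ripk3 and Mlkl by 1.65 and 0.98 on the log2 scale. Pycard, the adaptor of inflammasomes, fell by 0.89 ± 0.14 (limma adjusted p 0.00175), and so did Gsdmc3 (-1.49 ± 0.26), 1 of several near-identical gasdermins. In the unfolded protein and stress response 5 of 14 genes were called higher and 2 lower, and 9 and 0 with TMM factors. The higher calls came to 3 without mouse 1 and 2 without mouse 2. Calr, a chaperone, rose by 0.58 ± 0.09 and Asns, which makes asparagine, by 0.80 ± 0.12 on the log2 scale (limma adjusted p 0.00204 and 0.00161).

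Transcripts of neighbouring tissue and of blood moved with the comparison. The squamous keratin gene Krt13 of the anal canal was lower: it had 45.1, 17.9, 34.2 and 2.76 TPM at day 0 and 2.05, 0.795 and 2.54 TPM at day 6 (-2.78 ± 0.76, limma adjusted p 0.0169, but 0.0523 without mouse 9 and 0.0937 with all rectal samples in the fit). Krt5 was called lower only without mouse 4 (log2 difference -1.96, limma adjusted p 0.0349). Of 10 testable squamous genes 5 were called lower, against 37.2% of all genes tested (4 with TMM factors, against 17.8%). The lower calls came to 2 without mouse 1, 2, 3 or 9 and 3 without mouse 8, of 7 to 10 genes then tested. The summed squamous level was 22.7 to 261 TPM at day 0 and 10.1 to 69.4 TPM at day 6. Trp63, the basal squamous factor, was at or under 0.313 TPM throughout. Haemoglobin genes were higher: Hba-a1 had 30.8, 45.9, 38.1 and 29.0 TPM and then 70.4, 118 and 532 TPM (2.18 ± 0.57, limma adjusted p 0.0145, and 1.34 without mouse 10). All 4 testable red blood cell genes were called higher on both scales. Their summed level was 102 to 146 TPM at day 0 and 243, 429.3 and 1732 TPM at day 6, so all 3 injured mice were above the uninjured ones. Hba-a1 and Hba-a2 are near-identical copies. Mouse 10, highest for haemoglobin, was also highest for most of the cytokine genes called higher. The part of squamous or blood transcripts in the other results was not tested. None of 5 skeletal muscle genes was called on either scale. Of 8 smooth muscle genes Des and Tagln were called higher, against 11.5% of all genes tested (5 genes with TMM factors, against 18.6%). Both lost the call with all rectal samples in the fit (limma adjusted p 0.43 and 0.468). Myh11 went the other way and was called lower without mouse 8 (-0.87, limma adjusted p 0.021) and without the mitochondrial genome (-0.71, limma adjusted p 0.045).

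Some of the largest changes fell outside the lists. Of the 12 largest rises by the naming rule, 9 have been described or belong to a list and 3 do not. Clca4b, a member of the calcium-activated chloride channel regulator family with close copies, had 5.05, 36.7, 14.2 and 26.8 TPM at day 0 and 1258, 966 and 1765 TPM at day 6 (6.20 ± 0.55, limma adjusted p 0.000188). Wfdc18, a small secreted protein with a whey acidic protein domain, had 8.38, 11.7, 9.66 and 11.2 TPM and then 673, 380.3 and 568.5 TPM (5.56 ± 0.19, limma adjusted p 6.39e-06). The value of Hist2h2aa2, a histone gene, is uncertain because it has a near-identical copy. Falls outside the lists were led by Gsta3, a glutathione transferase, from 24.6, 29.1, 37.1 and 29.7 TPM to 0.446, 0.964 and 0.59 TPM (-4.22 ± 0.17, limma adjusted p 6.39e-06). Reg4, a lectin of secretory cells deep in the crypt, went from 157, 144, 162 and 221 TPM to 32.6, 8.21 and 8.27 TPM (-3.58 ± 0.42, limma adjusted p 0.000569). Scd2, a fatty acid desaturase, fell from 130.3 to 224.5 TPM to 9.39 to 39.0 TPM (-2.86 ± 0.41, limma adjusted p 0.00134). Defb45, Cyp2f2, Acer1, Cdo1 and Zfas1 completed that set, with log2 differences between -3.85 and -2.96. Zfas1, a long noncoding RNA, ranged from 7.77 to 87.3 TPM among the uninjured mice.

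Against rectum of day 3, while the mice were still drinking DSS, 27.4% of 12182 genes were called (10% higher and 17.3% lower at day 6, and 13.3% and 8.52%, or 21.8% together, with TMM factors). The median log2 difference was -0.20. Neutrophil genes separated these days: S100a9 had 0.833, 1.12 and 0.433 TPM at day 3 and between 194 and 1816 TPM at day 6 (8.15 ± 0.69, limma adjusted p 0.001). S100a8, at 2.47 to 4.29 TPM on day 3, differed by 6.47 ± 0.73, Saa3 by 6.98 ± 0.75 and Il1b by 5.90 ± 0.66 (limma adjusted p 0.00218, 0.002 and 0.00217). Higher calls went to 13 of 14 neutrophil genes, 16 of 17 macrophage genes, 9 of 10 protease genes and 16 of 19 interferon genes (13, 17, 9 and 18 with TMM factors). A gene under 1 TPM at day 3 could enter this test through day 6 alone, and the number of such genes was not counted. Tac1 and Mki67 were not called between these days. Tac1 had 179, 149 and 64.1 TPM at day 3, against 255, 176 and 147 TPM at day 6, and the days overlapped (0.64 ± 0.37, limma adjusted p 0.207). Mki67 had 2.45, 3.01 and 1.09 TPM at day 3, and none of 18 cell cycle genes was called lower at day 6 against day 3 (1 was called higher), on both scales. Gcg, at 30.4 to 57.7 TPM on day 3, rose further (2.01 ± 0.25, limma adjusted p 0.00285). The largest falls from day 3 to day 6 were S100g, from 177, 237 and 465 TPM (-4.37 ± 0.38), and the detoxifying enzymes Cyp2f2, from 18.7, 21.6 and 28.9 TPM (-3.26 ± 0.34), and Cyp2c68, from 378, 366 and 462 TPM (-3.09 ± 0.36; limma adjusted p 0.00111, 0.00189 and 0.00234). Mettl7a2 fell by 2.73 ± 0.42. S100g at day 3 lay within the range of uninjured mice, at 170 to 599 TPM.

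**Figure D4:**
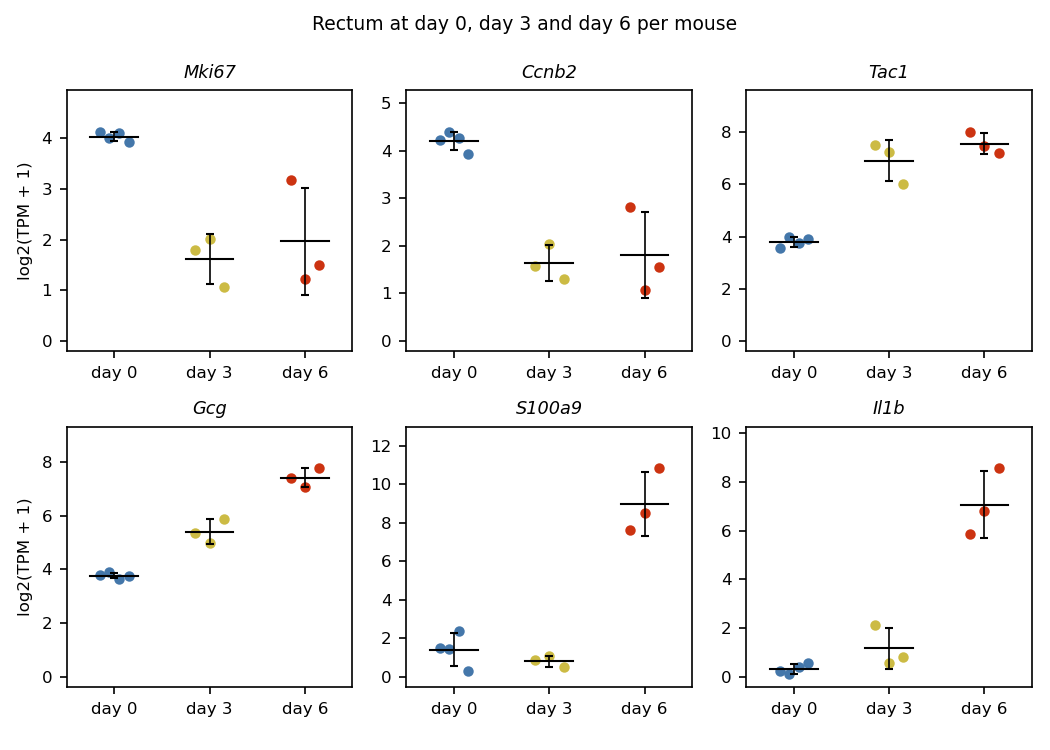
Log2(TPM + 1) of 6 genes in rectum at day 0 (4 mice, blue), day 3 (3 mice, yellow) and day 6 (3 mice, red) of DSS; points are mice, bars the mean ± SD. Mki67 and Ccnb2 were low and Tac1 high by day 3, whereas S100a9 and Il1b separated from uninjured mice mainly at day 6.

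The rectal response was also set against that of the mid-colon sections of the same 7 mice, as the difference between both day 6 minus day 0 changes. Without regard to the mouse, 0 of 12986 genes (0%) were called by limma (730 had an unadjusted p under 0.05), and 0 with TMM factors (783). With the mouse as a block, which uses the fact that both sections came from 1 animal, 76 genes were called (0.585%), 65 with the larger response in rectum (0.501%) and 11 with the smaller (0.0847%). Cxcl2 had 0.415, 1.86 and 6.95 TPM in mid-colon of mice 8, 9 and 10, against 12.5, 35.1 and 75.8 TPM in their rectum, and the response differed by 3.44 ± 0.19 (block; limma adjusted p 0.000132, and 0.165 without the block). Il1b had 7.85, 11.1 and 25.4 TPM in mid-colon of these mice (difference 3.42 ± 0.26, limma adjusted p 0.000906, and 0.125 without the block). Saa3 had 12.4, 22.7 and 222 TPM there (3.78 ± 0.29, limma adjusted p 0.000906, and 0.54 without the block), and Mmp3 had 9.49, 4.08 and 25.3 TPM (3.07 ± 0.26, limma adjusted p 0.00117, and 0.36 without the block). In each of the 3 mice the rectal value was the higher one, and mouse 10 was highest in both sections. A gene under 1 TPM in the other groups could enter this test through day 6 rectum alone, where it is then high. The number of such genes was not counted. With the block, 6 of 14 neutrophil genes, 3 of 5 neutrophil chemokines, 4 of 10 protease genes and 3 of 11 enteroendocrine genes (Gcg, Insl5 and Cck) were called with the larger rectal response. Of 4 haemoglobin genes 3 were also called so, Hba-a1 by 1.49 ± 0.25 (limma adjusted p 0.0423). Insl5 started lower in rectum, at 34.3 to 63.6 TPM against 91.2 to 146 TPM in uninjured mid-colon, and was at 252 to 467 TPM and 212 to 355 TPM at day 6. Sult1a1 and Cyp2f2 fell more in rectum, with differences of -1.19 ± 0.21 and -1.58 ± 0.18 (limma adjusted p 0.0445 and 0.0114 with the block, and 0.56 for each without it).

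**Figure D5:**
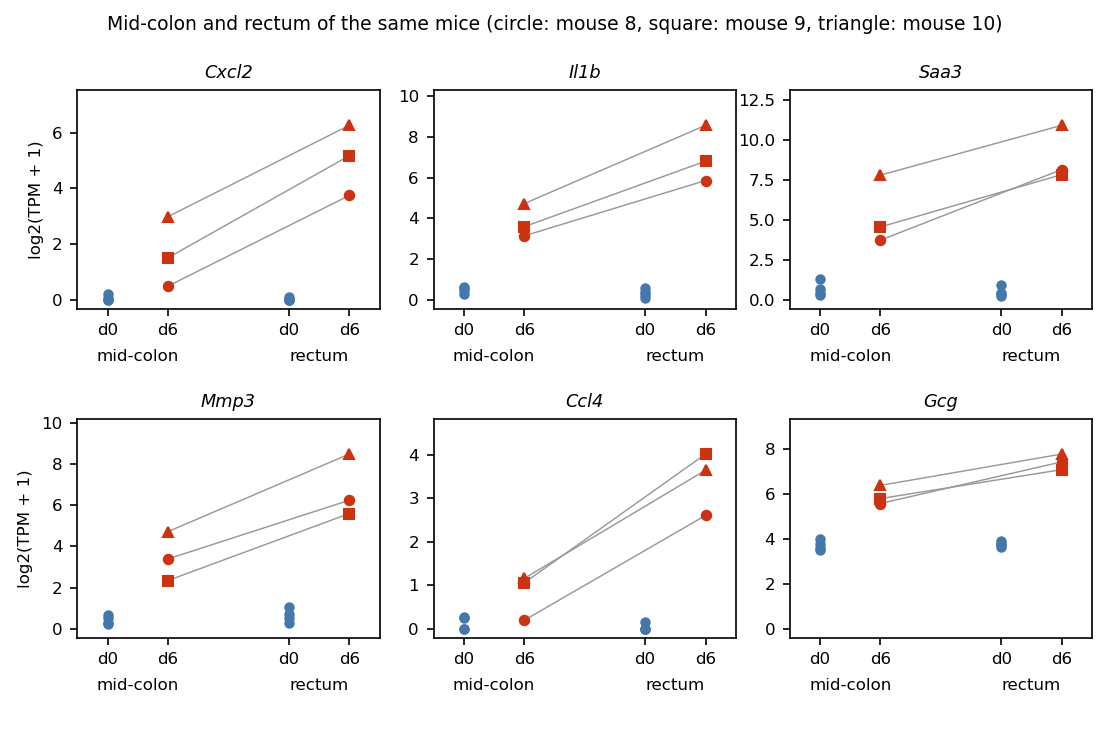
Log2(TPM + 1) of 6 genes in mid-colon and rectum at day 0 (d0, blue, 4 mice) and day 6 (d6, red, 3 mice); grey lines join both sections of 1 day 6 mouse (circle, mouse 8; square, mouse 9; triangle, mouse 10). All 3 lines rise from mid-colon to rectum in every panel.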

How the data were processed

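The authors deposited 1 table of transcript abundances in TPM, a unit scaled to a fixed total per library; kallisto, CASAVA and mm10 are named in the submitters' processing notes, while versions, the transcript index and settings are not given in the sources used here. Per the labels' protocols, stranded mRNA libraries were read from a single end. After 1318 repeats of a transcript were dropped, each column summed to 1000000 TPM, and values were summed per gene (30452 genes). Groups follow the labelled day and section. Differences were tested with limma 3.58.1 (R 4.3.3, mean trend, two-sided) on log2(TPM + 1), with Benjamini-Hochberg adjustment over all genes that reached 1 TPM in a number of samples equal to the size of the smaller group. The table gives no read numbers, and no count test, counting interval or detection floor could be had. p-values measure the spread between mice. TMM factors trimmed 30% of M and 5% of A values. Scripts for the fit and the factors were tested on simulated data. Rectum and mid-colon sections came from the same mice, per the mouse numbers in the labels, and their deviations from the group means had a mean Pearson r across genes of 0.245 (-0.024 to 0.509 over mice), so the comparison of sections was also fitted with the mouse as a block.

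Gene coordinates are of GRCm38 (GENCODE M21), and promoters come from RefSeq, GRCm38.p6. Named genes are those of 37 lists and the 12 largest rises and 12 largest falls called on both scales, with a mean of at least 8 TPM, no overlap between groups and a proper symbol (4 each way for day 6 against day 3). Some genes of the lists are not reported here. The members and the lists were chosen with earlier results of these data known. Calculations outside R used Python 3.11.15, numpy 2.4.6 and pandas 2.3.3, and plots matplotlib 3.10.9. Alternatives were TMM factors, the mitochondrial genome left out, a pseudocount of 0.1, a filter of 5 TPM or none, all rectal samples in the fit, each mouse left out, and the mouse block.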

Additional observations from a re-analysis of the deposited data

Results flagged for a closer look

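Among the 4 uninjured mice, 1 value stood far from the other 3 for 23 of 195 genes named in the text (gap to the nearest mouse over the whole range above Dixon's 95% critical value). Chance gives this in about 1 of 20 groups of normally distributed values, a rate that does not hold for genes near 0 TPM. Where the other 3 mice were at 0 TPM, the ratio is 1 whatever the value, as for Camp, Ccl4, Cxcl2, Ifng, Il13, Retnlg and Tnnc2. Mouse 3 was high for S100g at 599 TPM (170 to 197 TPM in the others), Gstm3 at 32.3, Hbegf at 8.67, Timp1 at 3.43, Selp at 1.56, Retnlg at 0.672, Camp at 0.461 and Clec4e at 0.161 TPM. Mouse 4 was high for Saa1 at 2856 TPM (1496 to 1711 TPM in the others), Ly6g at 736, Slc5a8 at 103, Vcam1 at 4.55, Lgr5 at 0.636 and Cxcl2 at 0.0697 TPM, and low for Smoc2 at 3.6 TPM. Mouse 1 was high for Cldn8 at 72 TPM, Tnnc2 at 1.96, Il13 at 0.054 and Hist2h2aa2 at 2.54e-06 TPM. Mouse 2 was low for Hpgds at 22.6 TPM and high for Il11 at 0.256, Ifng at 0.136 and Ccl4 at 0.114 TPM.

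The day 6 response differed between rectum and mid-colon in limma's test of the difference with the mouse as a block for 10 genes whose values the text gives. The rectal response was larger by 3.78 for Saa3, 3.44 for Cxcl2, 3.42 for Il1b, 3.07 for Mmp3, 2.44 for Cck, 1.49 for Insl5 and for Hba-a1, and 1.45 for Gcg on the log2 scale. The differences were -1.58 for Cyp2f2 and -1.19 for Sult1a1. None of these 10 was called without the block while all mice were kept. With mouse 10 left out and no block, Saa3, Il1b, Cck, Cxcl2, Mmp3 and Gcg were called (limma adjusted p 0.00288 to 0.0305). Cxcl2 and Il1b were also called so without mouse 8 (limma adjusted p 0.0274 and 0.0409), and Cck without mouse 4 (0.0469). Insl5, Hba-a1, Cyp2f2 and Sult1a1 were not among these calls.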

How the results depend on the processing

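For day 6 against day 0, the 1455 higher calls came to 2351 with TMM factors, 953 with all rectal samples in the fit and 966 with a filter of at least 5 TPM, and the 4690 lower calls came to 2246 with TMM factors. Leaving out 1 mouse gave 4818 to 5844 calls, 1164 to 1558 higher and 3545 to 4555 lower. At least 1 in 2 tested genes were called higher in 16 lists (14 to 17 without 1 mouse) and lower in 9 lists (6 to 9 without 1 mouse, and 4 with TMM factors). For day 6 against day 3, 3336 calls (1224 higher, 2112 lower) came to 1794 with no filter (782 higher, 1012 lower), the higher ones to 799 with a filter of at least 5 TPM, and the lower ones to 1038 with TMM factors and 3498 without the mitochondrial genome. Leaving out 1 mouse gave 1435 (without mouse 6) to 3071 calls, 636 to 1267 higher and 785 to 1804 lower. The log2 difference of Mki67 between these days, not called, ranged from -0.26 (without mouse 8) to 0.72 (without mouse 9) when 1 mouse was left out. For rectum against mid-colon, the mouse as a replicate block gave 76 calls (65 higher, 11 lower) in place of 0, all samples in the fit gave 2 (1 higher, 1 lower) and no filter gave 2 (1 higher, 1 lower). Leaving out 1 mouse gave 0 to 13 calls, 0 to 13 higher and 0 to 3 lower. The cause of these shifts was not tested. Of 172 named genes called at day 6, 166 kept their call with TMM factors and 151 with all rectal samples in the fit, and none changed direction under any alternative run. Calls lost with all rectal samples in the fit also include Ccl5, Cd74, H2-Ab1, H2-Eb1, Il1a, Il6st, Nos2, Reg3g, Timp3, Hpgds, Fdft1, Ocln, Des and Tagln (limma adjusted p 0.0503 to 0.468). Calls lost with TMM factors include Ccl28, Ocln and Tjp1, and those of Plau and Il11 were lost with no filter. The depth is unknown, so what it limits cannot be stated.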
